A study of Homo sapiens with 9 samples.

Results

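The zinc finger genes of chromosome band 19p12 were taken as every gene of the count table whose symbol begins with ZNF and a digit, pseudogenes included, and whose start lies between 19.5 and 24.5 Mb of chromosome 19 on GRCh38. The rule found 30 genes among the 26240 of the table, of which 28 are protein coding and 2, ZNF56P and ZNF826P, are transcribed pseudogenes. It used names and positions and no measured value, although the cluster was chosen with earlier results of these data known. They run from ZNF101, which starts at 19668796, to ZNF254, which starts at 24033405, with 17 on the plus and 13 on the minus strand. A further 14 ZNF genes that GENCODE release 29 places in the interval had no row and were not analysed here.

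Most genes of this cluster encode KRAB zinc finger proteins, one of the largest families of human transcription factors. Their C2H2 zinc fingers bind DNA, and the KRAB domain recruits the co-repressor TRIM28, which brings in the histone methyltransferase SETDB1 and heterochromatin protein 1. Many of them bind transposable elements and silence them in early development, and the genes themselves arose by repeated local duplication in primates.

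The cells were definitive endoderm derived in vitro from H9, an established human embryonic stem cell line, carrying CRISPR/Cas9 deletions of CHD7, a gene for an ATP-dependent chromatin remodeller, or none. There were 3 groups of 3 RNA sequencing libraries each, from homozygous (CHD7-/-), heterozygous (CHD7+/-) and wild-type (CHD7+/+) cells, and the question was how gene expression differs among them. The labels name no clones, separate cultures or days, so the p-values cover only how much these libraries vary, possibly for technical reasons, and an effect of the genotype and a difference between clones cannot be told apart. Total counts ran from 11854173 in homozygous replicate 1 to 37519729 in wild-type replicate 1. Levels are given as CPM, the counts scaled to a common TMM-adjusted library size. A gene was called where the p-value of the quasi-likelihood test of edgeR, adjusted by the Benjamini-Hochberg method over all 16837 genes tested, was below 0.05. Log2 fold changes are given with that p-value and with their standard error (SE).

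The promoters of the cluster are alike in sequence, and 5 of them are shown because their genes span the responses described below. Promoters of 25 of the 30 genes were found in the RefSeq table (GRCh38.p14), as 300 bases from 250 before to 50 after the RefSeq start. That start can differ from the GENCODE start used for positions elsewhere. ZNF429, for example, starts at 21496682 in GENCODE, so the promoter shown for it lies inside the GENCODE gene. The sequences are written 5′ to 3′ on the strand of the gene, and the capitals mark each CCAATCA, a motif that contains the CCAAT box.
ZNF626 promoter, chr19:20661522-20661821, minus strand: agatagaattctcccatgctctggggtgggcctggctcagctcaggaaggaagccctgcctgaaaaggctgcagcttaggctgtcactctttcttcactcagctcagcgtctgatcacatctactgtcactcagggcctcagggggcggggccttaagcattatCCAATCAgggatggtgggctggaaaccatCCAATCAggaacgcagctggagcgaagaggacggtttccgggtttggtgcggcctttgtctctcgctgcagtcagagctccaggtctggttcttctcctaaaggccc
ZNF737 promoter, chr19:20565732-20566031, minus strand: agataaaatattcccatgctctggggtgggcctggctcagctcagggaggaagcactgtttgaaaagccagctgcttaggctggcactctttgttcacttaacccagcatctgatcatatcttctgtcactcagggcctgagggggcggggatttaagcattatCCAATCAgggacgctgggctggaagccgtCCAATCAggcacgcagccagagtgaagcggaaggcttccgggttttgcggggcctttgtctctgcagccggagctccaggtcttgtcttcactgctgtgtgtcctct
ZNF90 promoter, chr19:20077750-20078049, plus strand: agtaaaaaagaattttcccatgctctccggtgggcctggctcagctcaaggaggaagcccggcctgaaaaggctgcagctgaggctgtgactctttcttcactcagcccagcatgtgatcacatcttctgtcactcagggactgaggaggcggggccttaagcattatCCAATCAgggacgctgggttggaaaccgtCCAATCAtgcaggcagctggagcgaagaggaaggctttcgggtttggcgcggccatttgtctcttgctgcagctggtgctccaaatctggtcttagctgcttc
ZNF486 promoter, chr19:20166964-20167263, plus strand: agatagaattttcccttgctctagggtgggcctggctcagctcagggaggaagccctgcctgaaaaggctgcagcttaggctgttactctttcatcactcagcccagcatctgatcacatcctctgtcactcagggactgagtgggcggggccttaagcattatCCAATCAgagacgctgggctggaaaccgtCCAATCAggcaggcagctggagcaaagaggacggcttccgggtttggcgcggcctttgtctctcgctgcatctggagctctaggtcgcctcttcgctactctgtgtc
ZNF429 promoter, chr19:21505352-21505651, plus strand: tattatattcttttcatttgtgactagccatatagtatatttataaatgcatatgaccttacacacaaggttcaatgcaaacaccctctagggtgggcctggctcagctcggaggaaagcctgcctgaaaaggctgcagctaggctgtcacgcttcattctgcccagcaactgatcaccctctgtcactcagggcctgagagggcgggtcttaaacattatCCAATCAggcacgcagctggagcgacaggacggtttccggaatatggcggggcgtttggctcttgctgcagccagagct
ZNF626 had no count in homozygous cells, ZNF737 and ZNF90 were lower in both mutants, ZNF486 was called in no comparison, and ZNF429 was lowest in homozygous cells.

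CCAATCA, searched on both strands, was present in 25 of the 25 promoters, against 16.7% of 204 promoters of other chromosome 19 zinc finger genes and 7.28% of 27305 promoters in all. The longer TCCAATCAGG, which contains it, was in 24 of 25, against 7.84% and 0.388%. CTGTCACTCA was in 19 of 25, against 5.88% and 0.385%. Both 10-base words were found by counting words shared among these same promoters, so their frequency there is not independent of the search. CCAATCA lies within the first of them, so its frequency is not independent of that word's. Aligned in pairs, the 25 promoters were 68.0% to 91.2% identical, with a median of 83.3% over 300 pairs. The promoter of ZNF626 was 90.4% identical to that of ZNF486 over 293 bases and 85.1% identical to that of ZNF737 over 295 bases. These promoters held 8 to 18 CpG dinucleotides with a median of 10, against a median of 22 in the other chromosome 19 zinc finger promoters and 14 in all promoters.

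Translated from GENCODE coding sequences, the 28 proteins were 137 to 1191 residues long with a median of 571.5. A C2H2 pattern was found 0 times in ZNF738, a short protein of 137 residues, and 32 times in ZNF91, with a median of 12.5. A KRAB A box pattern was found in 26 of 28, and not in ZNF714 and ZNF43. It was a fixed pattern searched in the longest translation of each gene, so a missing match does not show that the box is absent. Identity between pairs ran from 31.0% to 84.3% with a median of 70.4%, and was highest between ZNF714 and ZNF431. ZNF626 and ZNF737 were 79.1% identical over 536 residues. Such similarity can divide reads among copies, and the read length is not given, so the share of transcript words found in another gene was counted at 50 and at 100 bases. At 50 bases it was 2.02% for ZNF826P, 8.23% for ZNF737, 6.85% for ZNF626, 21.1% for ZNF90 and 48.7% for ZNF724. At 100 bases it was 0% for ZNF826P and ZNF737, 3.91% for ZNF626, 14.1% for ZNF90 and 41.9% for ZNF724. The part of shared reads in the results was not tested, and the counts of ZNF90 and ZNF724 are the less certain for it.

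CHD7 itself followed the labels. It stood at 56.1, 43.0 and 55.5 CPM in homozygous libraries, 110, 131 and 129 CPM in heterozygous libraries and 194.9, 194.9 and 189.2 CPM in wild-type libraries. Of the 12 definitive endoderm markers all were tested and none was at 0. Their summed level was 7338 to 8533 CPM in homozygous, 9074 to 10176 CPM in heterozygous and 10790 to 11601 CPM in wild-type libraries. CER1 alone averaged 4630, 6124 and 7245 CPM in the same order and makes up most of that sum. FOXA2, FOXA1, CER1 and HHEX were called lower in homozygous than in wild-type cells (adjusted p-values of 2.16e-06 to 0.0124). Of all genes tested, 4.18% were called lower and 3.5% higher in that comparison. FOXA1, a pioneer transcription factor, averaged 2.68 CPM in homozygous, 11.6 CPM in heterozygous and 20.6 CPM in wild-type cells and was also lower in heterozygous than in wild-type cells (-0.83, adjusted p = 0.0266). Between homozygous and heterozygous cells, FOXA1 (-2.10, adjusted p = 7.73e-05) and HHEX (-0.43, adjusted p = 0.0331) were lower. There 1.22% of all genes tested were called lower and 0.986% higher. The pluripotency markers (7 of 8 tested) summed to 3133 to 3287 CPM in homozygous, 3245 to 3556 CPM in heterozygous and 3552 to 3687 CPM in wild-type libraries. LIN28A (means of 2001, 1968 and 2312 CPM in the same order) and TDGF1 make up most of that sum. LIN28A averaged lower in heterozygous than in wild-type cells, and TDGF1 was nearly level there (means of 1014 and 1020 CPM). POU5F1, SOX2, NANOG, DPPA4 and ZFP42 averaged higher in heterozygous cells. POU5F1 rose from 69.6 CPM in wild-type to 159 CPM in heterozygous cells (log2 1.19), and SOX2 from 4.85 to 13.6 CPM (1.47). The median log2 fold change of the 7 in heterozygous against wild-type cells was 0.26, and 0 were called, where 1.86% of all genes were. At an unadjusted p under 0.05, 5 of the 7 passed, against 13.5% of all genes. LIN28A, at -0.23, was among these 5, and NANOG, at 0.35, was not. Among pluripotency markers, TDGF1 was lower in homozygous than in wild-type cells (-0.25, adjusted p = 0.0494) and NANOG lower in homozygous than in heterozygous cells (-1.65, adjusted p = 0.0401). The mesoderm markers (4 of 6 tested) summed to 629 to 739 CPM in homozygous, 743 to 834 CPM in heterozygous and 981 to 1003 CPM in wild-type libraries. MIXL1 alone averaged 647, 766 and 942 CPM in the same order, so this sum is mostly that of 1 gene. KDR (-1.05, adjusted p = 0.00419) and MIXL1 (-0.54, adjusted p = 0.00192) were lower in homozygous than in wild-type cells. Neuroectoderm markers (3 of 4 tested) summed to 888 to 980 CPM in homozygous, 987 to 999 CPM in heterozygous and 1048 to 1059 CPM in wild-type libraries. OTX2 and NES make up most of that sum, and PAX6 averaged 0.199, 0.333 and 0.462 CPM in the same order. Trophoblast and amnion markers (2 of 5 tested) summed to 22.9 to 29.5 CPM in homozygous, 12.9 to 13.7 CPM in heterozygous and 9.20 to 11.97 CPM in wild-type libraries. Both tested ones were higher in homozygous than in wild-type cells, GATA3 by 1.36 (adjusted p = 0.00233) and TFAP2C by 1.23 (adjusted p = 2.16e-04) on the log2 scale. They were also higher than in heterozygous cells, by 1.43 (adjusted p = 0.00553) and 0.90 (adjusted p = 0.00597) in the same order. In heterozygous against wild-type cells, FOXA1 was the one marker of these lists called, where 1.86% of all genes tested were called. SOX1 was at 0 in both mutants, HAND1 in heterozygous and KRT7 in wild-type cells. Each of them had too few counts over the libraries to be tested, so these zeros are not read as a change. The part of these differences in the zinc finger results was not tested. In bulk samples, fewer cells of a type and less RNA per cell cannot be told apart.

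The genes are moderately expressed in wild-type endoderm and span a wide range. On a scale corrected for exon length and depth (RPKM), ZNF90 was first at 11.9 ± 0.651 in wild-type cells (SD, n = 3). ZNF738 (8.72 ± 0.193), ZNF708 (7.88 ± 0.796), ZNF93 (7.59 ± 0.380) and ZNF101 (6.66 ± 0.165) followed. Neighbours in this order from ZNF738 to ZNF93 differed by less than the sum of their SDs, whereas ZNF90 stood above the rest by more. ZNF826P was the sixth at 6.04 RPKM and ZNF626 the 24th at 1.25 RPKM. At the low end, ZNF506 had 0.104 RPKM and ZNF726 0.0174 RPKM in wild-type cells. The order changed with genotype, since ZNF738 led at 7.43 ± 0.566 RPKM in homozygous and 9.36 ± 0.784 RPKM in heterozygous cells. ZNF90 was the fourth at 5.65 ± 0.432 RPKM in homozygous cells and the seventh at 5.02 ± 0.432 RPKM in heterozygous cells.

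Of the 30 genes, 29 passed the filter on low counts. ZNF726 was removed, with 0 counts in each homozygous library, 0, 1 and 0 in heterozygous libraries and 3, 5 and 2 in wild-type libraries. ZNF626, ZNF826P, ZNF506 and ZNF56P passed through the genotypes in which they were higher, while the other 25 reached the filter's level in every library. Wild-type libraries serve both comparisons with wild type, so calls in these are not independent.

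In homozygous against wild-type cells, 10 of 29 zinc finger genes of the cluster were called lower and 0 higher, where 7.68% of all genes tested were called in either direction, 4.18% lower and 3.5% higher. Their median log2 fold change was -0.45, against 0.01 over all genes, and 27 of 29 were below 0, against 48.6% of all genes. Without homozygous replicate 2 that median was -0.28. At an unadjusted p under 0.05, 19 of 29 passed, against 23.2% of all genes. Of the 25 genes that passed the filter in every genotype, 8 were called lower and 0 higher. In 20 of the 30 genes every homozygous library lay below every wild-type library and in 0 above, where 11.9% of all genes with counts lay below and 10.8% above.

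ZNF626 (ENSG00000188171, chromosome 19, 20620061 to 20661596, minus strand) was not detected in homozygous cells. It had 0 counts in each of the 3 homozygous libraries, against 772 counts over the wild-type libraries, at 8.13, 9.22 and 7.81 CPM. With a floor of 3 counts over a genotype, which covers counting error only, it was at least 174-fold lower in homozygous cells (adjusted p = 6.96e-07). Heterozygous libraries held 92, 103 and 103 counts, or 2.99, 3.76 and 4.37 CPM. These values lay below all wild-type libraries and above all homozygous ones.

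ZNF253 showed the next largest fall in homozygous cells. It had 1.42, 1.19 and 0.798 CPM in homozygous libraries, 5.44, 6.17 and 9.49 CPM in heterozygous libraries and 7.08, 7.41 and 6.10 CPM in wild-type libraries. The homozygous libraries stood apart, while heterozygous and wild-type libraries overlapped. Against wild type, homozygous cells had a log2 fold change of -2.62 (adjusted p = 5.78e-05, SE 0.26), and against heterozygous cells one of -2.65 (adjusted p = 1.23e-04, SE 0.27). In heterozygous against wild-type cells it was 0.03, with an adjusted p of 0.981.

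ZNF429 was lowest in homozygous cells and intermediate in heterozygous cells. It had 6.27, 5.13 and 8.73 CPM in homozygous libraries, 9.77, 10.7 and 10.9 CPM in heterozygous libraries and 15.99, 18.2 and 17.4 CPM in wild-type libraries, with no overlap between any pair of genotypes. Set against wild type, the log2 fold change was -1.36 in homozygous cells (adjusted p = 3.19e-04, SE 0.17) and -0.72 in heterozygous cells (adjusted p = 0.0439, SE 0.16). The difference of -0.65 between homozygous and heterozygous cells was not called (adjusted p = 0.0764). The heterozygous call was lost when any wild-type or heterozygous library, or homozygous replicate 1, was left out, with adjusted p-values of up to 0.231.

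ZNF90, the most abundant per length in wild-type cells, was lower in both mutants. It had 28.5, 26.1 and 30.4 CPM in homozygous libraries, 23.5, 24.4 and 27.6 CPM in heterozygous libraries and 56.5, 63.0 and 60.0 CPM in wild-type libraries. Homozygous cells lay at 47.4% and heterozygous cells at 42.1% of the wild-type mean. The log2 fold change from wild type was -1.08 in homozygous cells (adjusted p = 2.53e-05, SE 0.10) and -1.25 in heterozygous cells (adjusted p = 1.07e-05, SE 0.10). Between homozygous and heterozygous cells the difference was 0.17 (adjusted p = 0.377, SE 0.10), and their libraries overlapped.

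The other genes called in homozygous against wild-type cells were lower by smaller amounts. ZNF675, whose protein is known as an inhibitor of TRAF6 signalling, averaged 21.4 ± 3.46 CPM in homozygous and 35.3 ± 1.75 CPM in wild-type cells (SD, n = 3 each), a log2 fold change of -0.73 (adjusted p = 0.00363). ZNF493 averaged 9.004 ± 1.71 CPM in homozygous and 14.7 ± 1.24 CPM in wild-type cells (-0.72, adjusted p = 0.0316). ZNF682 averaged 6.14 ± 1.13 CPM in homozygous, 6.39 ± 0.0658 CPM in heterozygous and 9.501 ± 1.075 CPM in wild-type cells (SD, n = 3 each). Its log2 fold change from wild type was -0.64 in homozygous (adjusted p = 0.0296) and -0.57 in heterozygous cells (adjusted p = 0.108, not called), and all libraries of both mutants lay below all wild-type libraries. Between the mutants the difference was -0.07 (adjusted p = 0.849). The call of ZNF493 was lost without any 1 wild-type library, heterozygous replicate 2 or homozygous replicate 1 or 2, with adjusted p-values of up to 0.138. That of ZNF682 was lost without wild-type replicate 2 or 3, heterozygous replicate 2 or homozygous replicate 1 or 2 (up to 0.135), and also with the 6 libraries of the comparison alone (0.0551). Closest to the threshold without a call in homozygous against wild-type cells were ZNF681 (-0.67, adjusted p = 0.0738) and ZNF730 (-0.48, adjusted p = 0.0842).

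**Figure D1:**
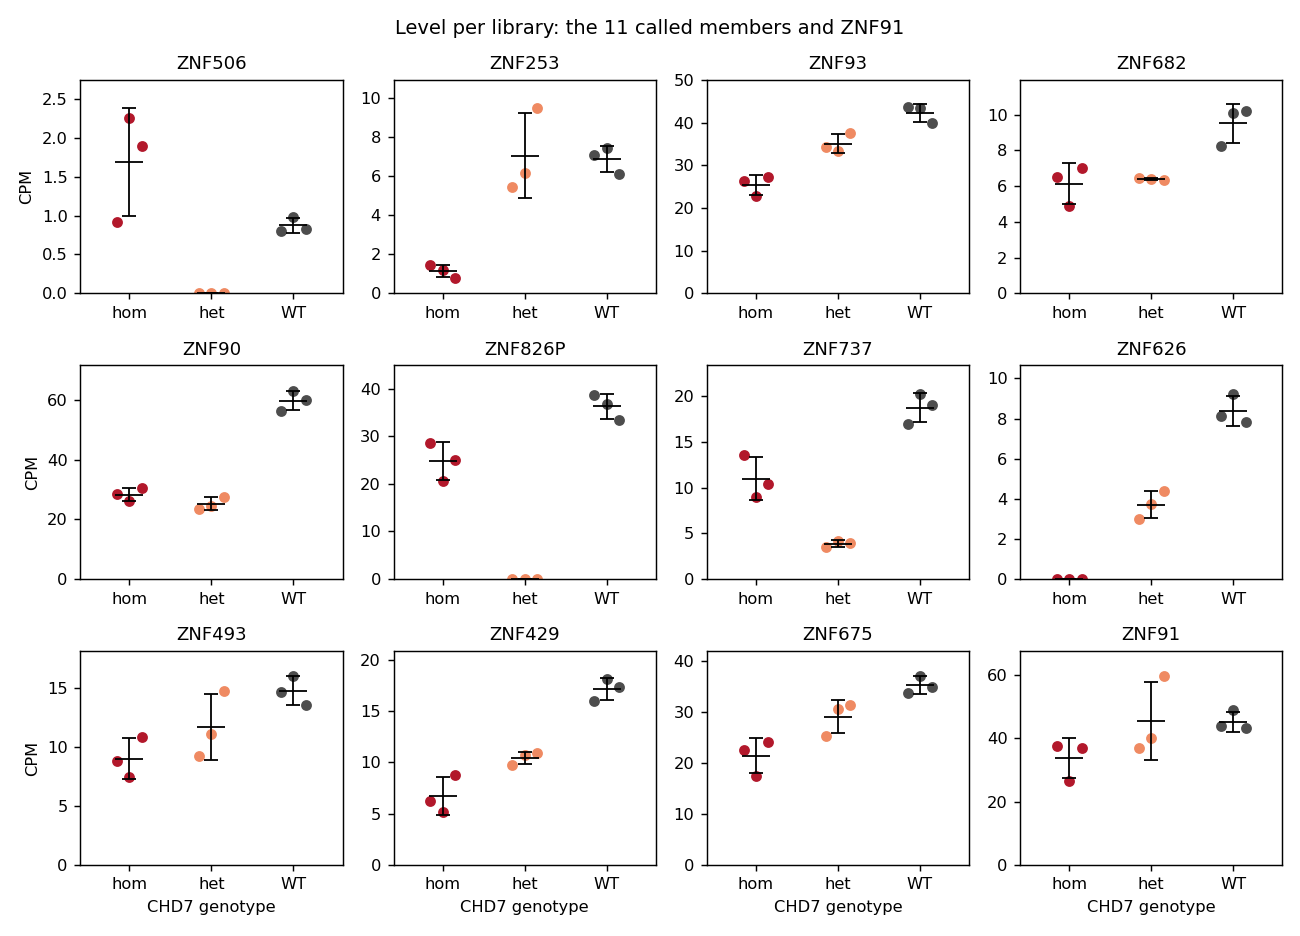
CPM in each of the 9 libraries for the 11 genes called in any comparison and for ZNF91, by CHD7 genotype (hom, homozygous; het, heterozygous; WT, wild type), with the mean and SD of 3 libraries as black bars. ZNF626 is at 0 in homozygous libraries, and ZNF826P and ZNF506 are at 0 in heterozygous libraries.

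In heterozygous against wild-type cells, 6 of 29 genes were lower and 0 higher, where 1.86% of all genes tested were called in either direction, 1.04% lower and 0.82% higher. They were ZNF826P, ZNF506, ZNF737, ZNF90, ZNF626 and ZNF429. Closest to the threshold without a call were ZNF682, which was called with DESeq2 and with the 6 libraries alone, and ZNF93. The median log2 fold change of the 29 was -0.09, against 0.00 over all genes, and 18 of 29 were below 0, against 49.2% of all genes. Without heterozygous replicate 3 that median was -0.25. At an unadjusted p under 0.05, 9 of 29 passed, against 13.5% of all genes. Of the 25 genes that passed the filter in every genotype, 3 were lower and 0 higher. Every heterozygous library lay below every wild-type library in 10 of the 30 genes and above in 0, where 8.87% of all genes with counts lay below and 9.03% above.

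ZNF826P (ENSG00000231205, chromosome 19, 20340269 to 20424969, minus strand), a transcribed pseudogene, was not detected in heterozygous cells, yet it was abundant in the others. It had 343, 623 and 502 counts in homozygous libraries, 0 in each heterozygous library and 1440, 1119 and 807 in wild-type libraries. In CPM these were 28.7, 20.6 and 25.0 in homozygous and 38.6, 36.7 and 33.5 in wild-type libraries. Heterozygous cells were at least 998-fold below wild-type cells (adjusted p = 4.08e-08), and homozygous cells were at least 642-fold above heterozygous cells (adjusted p = 9.91e-08). These were the lowest p-values of all 16837 genes in both comparisons. Homozygous cells were also below wild-type cells, with a log2 fold change of -0.56 (adjusted p = 0.0267, SE 0.13), a call lost without any 1 wild-type library or homozygous replicate 2 (adjusted p of up to 0.113). MIR1270, a microRNA gene that lies within ZNF826P on the same strand, was below the filter, with 2, 0 and 0 counts in homozygous, 0 in heterozygous and 4, 9 and 5 in wild-type libraries.

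ZNF506 (ENSG00000081665, chromosome 19, 19785839 to 19821751, minus strand) was likewise at 0 in heterozygous cells, at a lower level elsewhere. It had 11, 68 and 38 counts in homozygous, 0 in each heterozygous and 30, 30 and 20 in wild-type libraries. In homozygous libraries this was 0.919, 2.25 and 1.90 CPM, against 0.805, 0.984 and 0.830 CPM in wild-type libraries, and these overlapped. Heterozygous cells were at least 23.7-fold lower than wild-type cells (adjusted p = 0.00106), and homozygous cells at least 51.2-fold higher than heterozygous cells (adjusted p = 2.27e-04). The difference of 1.01 (log2, SE 0.35) between homozygous and wild-type cells was not called (adjusted p = 0.113). ZNF56P overlaps ZNF506 by 35913 bases on the opposite strand, and no source used here gives the strand setting of the counting. It had 0.334, 0.364 and 0.499 CPM in homozygous, 0.423, 0.585 and 0.254 CPM in heterozygous and 0.563, 0.951 and 0.498 CPM in wild-type libraries and was called in no comparison.

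ZNF737 (ENSG00000237440, chromosome 19, 20535825 to 20565809, minus strand) was reduced most in heterozygous cells without being lost. It had 13.5, 9.004 and 10.4 CPM in homozygous libraries, 3.48, 4.20 and 3.90 CPM in heterozygous libraries and 17.0, 20.2 and 19.1 CPM in wild-type libraries, and no pair of genotypes overlapped. Homozygous cells had a log2 fold change of -0.79 from wild type (adjusted p = 0.00686, SE 0.15), and heterozygous cells one of -2.28 (adjusted p = 5.91e-06, SE 0.16). Homozygous cells were higher than heterozygous cells by 1.49 (adjusted p = 3.06e-04, SE 0.17). ZNF626, its neighbour 54251 bases away, ran the other way between the mutants, at least 75.7-fold lower in homozygous than in heterozygous cells (adjusted p = 9.90e-06). Heterozygous cells had less ZNF626 than wild-type cells, at a log2 fold change of -1.18 (adjusted p = 0.00818, SE 0.18). That call was lost on leaving out wild-type replicate 2 or heterozygous replicate 2, with adjusted p-values of up to 0.0642.

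Between homozygous and heterozygous cells, 3 of 29 genes were higher and 3 lower, where 2.21% of all genes tested were called in either direction, 0.986% higher and 1.22% lower. ZNF826P, ZNF506 and ZNF737 were higher in homozygous cells, and ZNF626, ZNF253 and ZNF93 were lower. The median log2 fold change was -0.34, against 0.01 over all genes, and 25 of 29 were below 0, against 49% of all genes. Leaving out homozygous replicate 2 brought that median to -0.14. At an unadjusted p under 0.05, 13 of 29 passed, against 18.3% of all genes. Of the 25 genes that passed the filter in every genotype, 1 was higher and 2 were lower. Libraries of homozygous cells lay below all heterozygous ones in 10 of the 30 genes and above them in 3, where 8.26% and 7.59% of all genes with counts did so. Closest to the threshold without a call were ZNF429 and ZNF738 (-0.34, adjusted p = 0.0938, SE 0.10). The level of a gene in homozygous cells thus did not always lie on the far side of the heterozygous level from wild type. ZNF506, ZNF826P and ZNF737 had their lowest level in heterozygous cells.

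**Figure D2:**
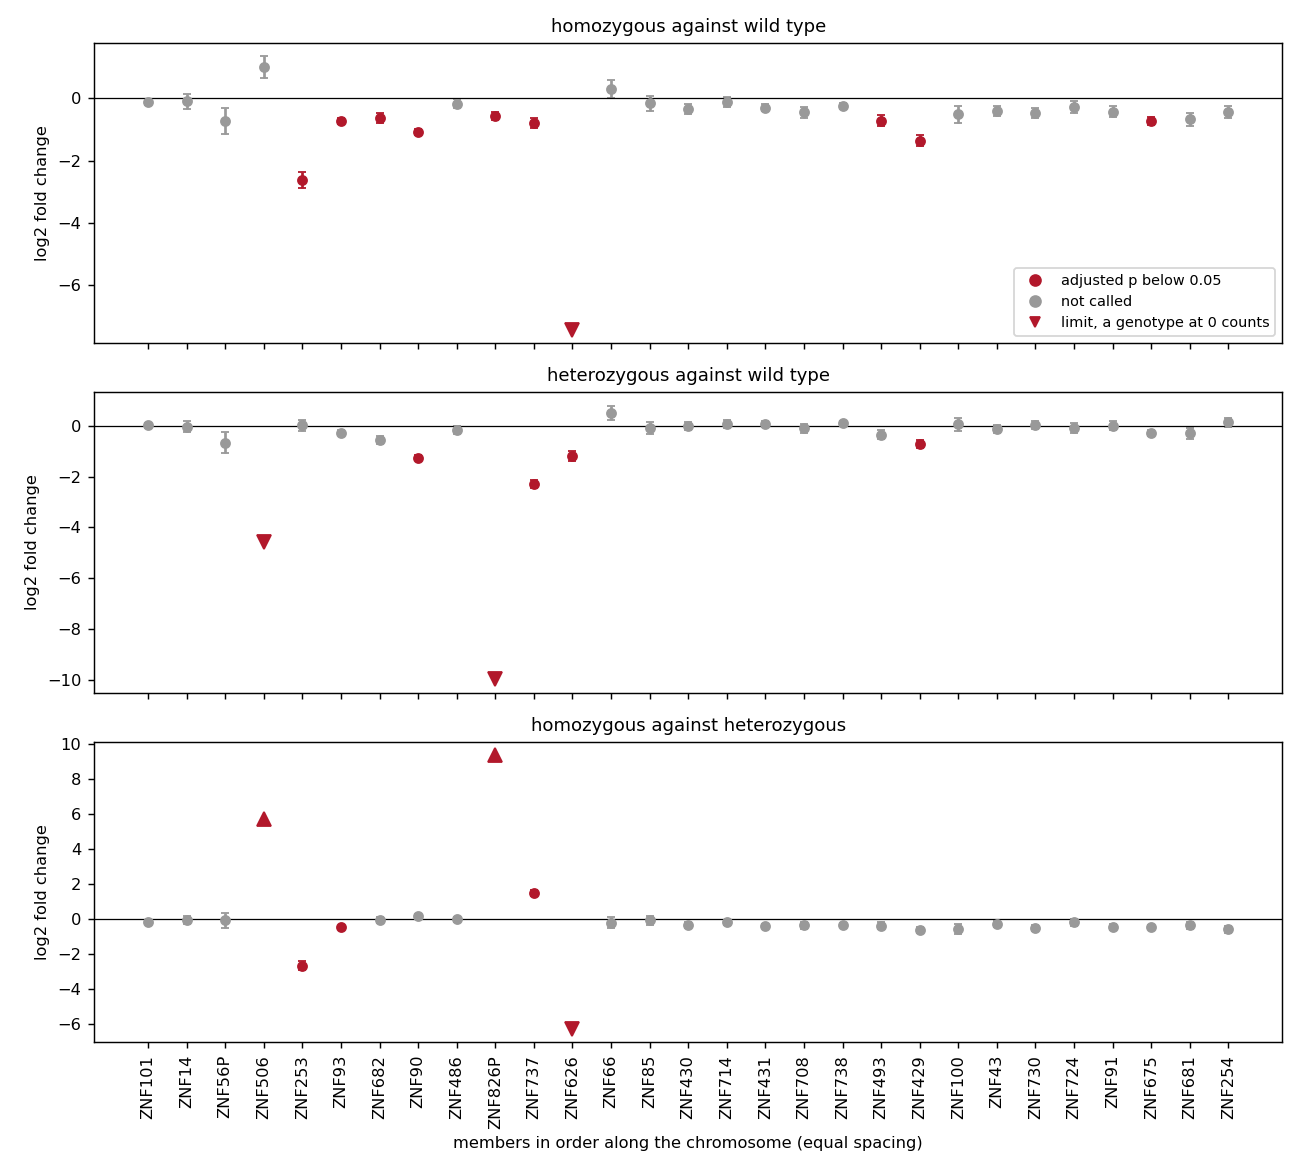
Log2 fold change (points, with SE as bars) of the 29 tested genes in each comparison, in order along the chromosome. Red marks genes called at an adjusted p below 0.05, and triangles mark the limit where a genotype had 0 counts, as for ZNF626, ZNF826P and ZNF506.

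ZNF91 and ZNF93 are known for binding retroelements, ZNF91 SVA elements and ZNF93 LINE-1 elements. ZNF93 had 26.4, 22.8 and 27.2 CPM in homozygous libraries, 34.4, 33.3 and 37.7 CPM in heterozygous libraries and 43.6, 43.5 and 39.9 CPM in wild-type libraries. No pair of genotypes overlapped. ZNF93 was lower in homozygous than in wild-type cells (-0.74, adjusted p = 5.10e-04, SE 0.10) and than in heterozygous cells (-0.47, adjusted p = 0.0292, SE 0.10). The call against heterozygous cells was lost without any 1 heterozygous library, wild-type replicate 2 or 3 or homozygous replicate 1 or 2, with adjusted p-values of up to 0.0861. Between heterozygous and wild-type cells the difference was -0.27 (adjusted p = 0.222, SE 0.10). ZNF91 had 37.7, 26.4 and 36.9 CPM in homozygous, 36.9, 40.1 and 59.7 CPM in heterozygous and 43.8, 48.8 and 43.1 CPM in wild-type libraries. Its homozygous libraries lay below the wild-type ones, but the difference of -0.43 (SE 0.18) was not called (adjusted p = 0.158). In heterozygous cells the spread of 36.9 to 59.7 CPM enclosed every wild-type value.

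The 18 tested genes called in no comparison had log2 fold changes of their own mostly below 0 in homozygous against wild-type cells. This was so in 17 of 18, against 48.6% of all genes tested. In heterozygous against wild-type cells it was 8 of 18, against 49.2%. The 18 were set apart by the outcome of the same fits, so these counts are a description. Set against the wild-type mean, their median log2 level was -0.13, -0.54 and -0.23 in homozygous replicates 1, 2 and 3. It was -0.16, -0.03 and 0.12 in heterozygous and 0.02, 0.04 and -0.06 in wild-type replicates. Homozygous replicate 2 was the lowest of all libraries and heterozygous replicate 3 the highest. ZNF66 was an exception to the direction, with 3.65 ± 1.31 CPM in homozygous, 4.07 ± 1.33 CPM in heterozygous and 2.86 ± 0.282 CPM in wild-type cells (SD, n = 3 each), and was not called (adjusted p = 0.577 and 0.49 against wild type).

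Summed over the 30 genes, the level was 474, 356 and 459 CPM in homozygous libraries, 445, 477 and 574 CPM in heterozygous libraries and 605, 637 and 589.9 CPM in wild-type libraries. All homozygous and all heterozygous libraries lay below the lowest wild-type library. The 18 tested genes called in no comparison summed to 331, 239 and 313 CPM in homozygous libraries. Their sums were 324, 346 and 428 CPM in heterozygous and 360, 374 and 347 CPM in wild-type libraries, and these overlapped. The 18 are what remained after the genes called in these same fits were set aside. Their overlapping sums therefore do not show where the lower sum over all 30 genes in heterozygous cells arose. For other chromosome 19 zinc finger genes, the median log2 level set against wild type was -0.09, -0.20 and -0.05 in homozygous and -0.13, -0.07 and 0.00 in heterozygous replicates. Homozygous replicate 2 was therefore also the lowest in genes outside the cluster, and the part of this library's difference in the result was not tested. Without homozygous replicate 2, 7 of 29 genes were called lower in homozygous against wild-type cells, and 435 of all 17052 genes then tested. Leaving out wild-type replicate 2 or wild-type replicate 3 also gave 7 of 29.

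**Figure D3:**
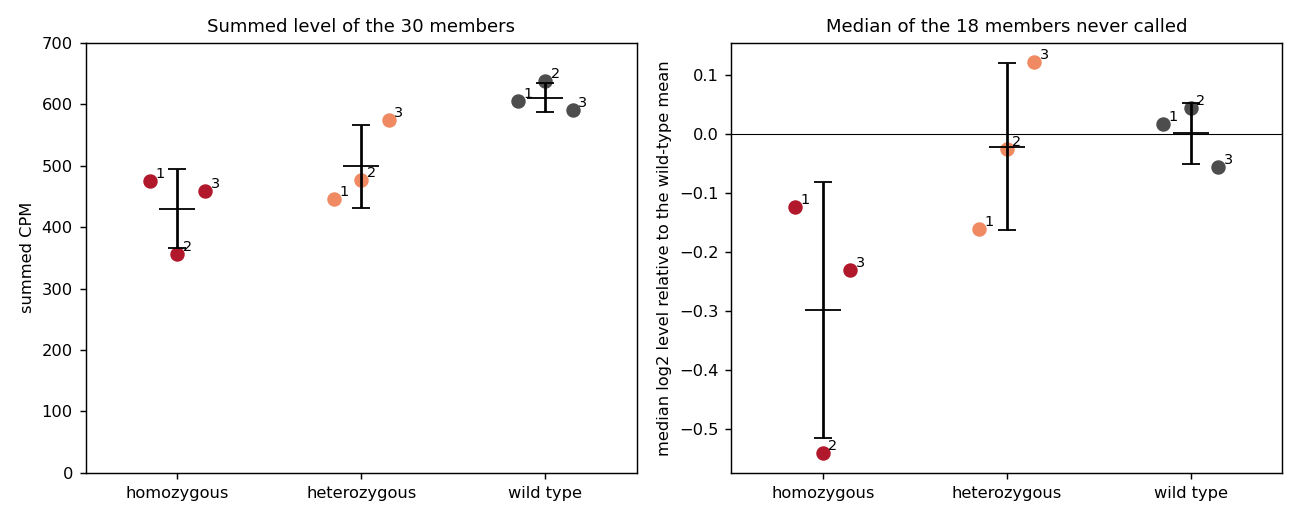
Left, the CPM of the 30 genes summed in each library. Right, the median log2 level, set against the wild-type mean, of the 18 genes called in no comparison; numbers are replicates and bars the mean and SD of 3 libraries. Homozygous replicate 2 is lowest in both panels, at 356 CPM and -0.54.

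Zinc finger genes elsewhere on chromosome 19 give the nearest comparison. In homozygous against wild-type cells 7 of 214 were higher and 14 lower, or 9.81% of those tested, where the cluster had 34.5%. In heterozygous against wild-type cells 2 were higher and 10 lower, or 5.61%, against 20.7%. Between homozygous and heterozygous cells 5 were higher and 3 lower, or 3.74%, against 20.7%. Genes of the interval that are not ZNF genes were called in 2 of 25 cases (8%) in homozygous and in 4 of 25 (16%) in heterozygous against wild-type cells. Between homozygous and heterozygous cells 5 of 25 (20%) were called, at about the share of the cluster. These shares are given as a description, without a test of the difference between groups of genes.

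**Figure D4:**
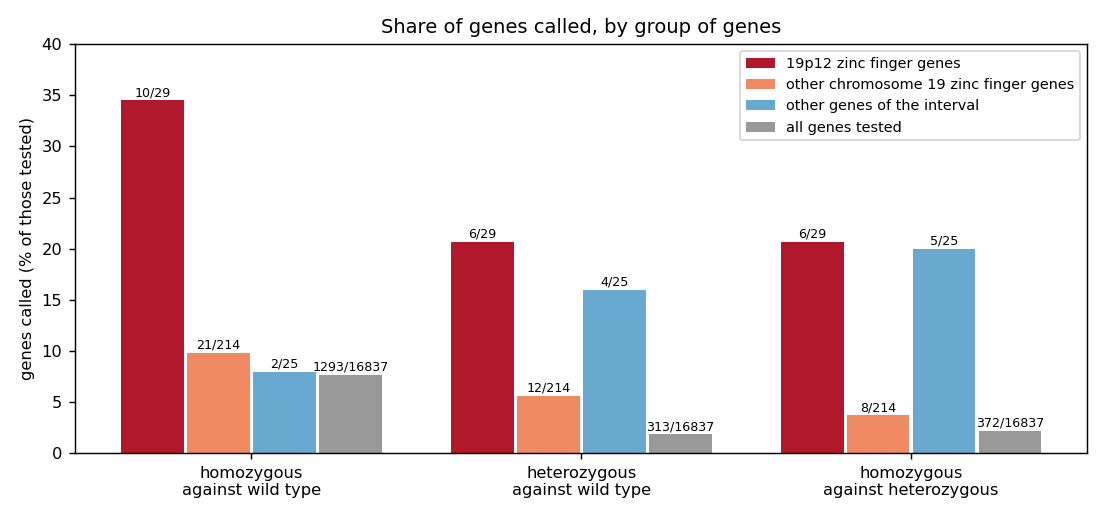
Share of tested genes called at an adjusted p below 0.05 in each comparison, as a percent, for the 19p12 zinc finger genes, other chromosome 19 zinc finger genes, other genes of the interval and all genes; the counts stand above the bars. The cluster stands at 34.5%, 20.7% and 20.7%.

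Along the interval, the 6 genes called lower in heterozygous against wild-type cells lay in 3 of the stretches compared, and their spacing was not tested. Between 20 and 21 Mb, 4 of 7 genes were lower (ZNF90, ZNF826P, ZNF737 and ZNF626), and the median log2 fold change of the 7 was -1.18. Below 20 Mb 1 of 7 was lower (ZNF506), with a median of -0.27, and between 21 and 22 Mb 1 of 9 (ZNF429), with a median of 0.01. ZNF486, which lies between ZNF90 and ZNF826P, was at 10.1 ± 1.17 CPM in heterozygous and 11.2 ± 1.38 CPM in wild-type cells (SD, n = 3 each) and was not called (adjusted p = 0.71). Of 4 other tested genes of this megabase, 3 were also lower in heterozygous than in wild-type cells. These were ENSG00000267383, an antisense RNA (-1.57, adjusted p = 0.00276), ENSG00000280079 (-1.82, adjusted p = 1.48e-04) and the processed pseudogene ENSG00000213985 (-2.12, adjusted p = 0.00139). All were higher in homozygous than in heterozygous cells. ENSG00000267383 overlaps ZNF90 by 1700 bases and ZNF486 by 33263 bases on the opposite strand, so reads of these pairs may not be separable. From 23 to 24.5 Mb, 0 of 6 tested genes were called in heterozygous cells, with a median of -0.04.

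In homozygous against wild-type cells the lower genes were distributed as 3 of 7 below 20 Mb, 4 of 7 between 20 and 21 Mb, 2 of 9 between 21 and 22 Mb and 1 of 6 tested from 23 Mb. The median log2 fold changes of the zinc finger genes there were -0.64, -0.56, -0.40 and -0.46 in this order along the chromosome. ZNF429 had called neighbours upstream. LINC00664, a non-coding RNA that overlaps ZNF429 by 6557 bases on the same strand, had 1, 2 and 4 counts in homozygous libraries, 44, 41 and 18 counts in heterozygous libraries and 123, 81 and 51 counts in wild-type libraries. It was lower in homozygous than in wild-type cells (-4.52, adjusted p = 5.78e-05, SE 0.46), with no overlap of libraries. ENSG00000268119, between ZNF493 and LINC00664, was lower in homozygous (-2.05, adjusted p = 1.28e-04) and in heterozygous (-1.005, adjusted p = 0.0289) than in wild-type cells.

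**Figure D5:**
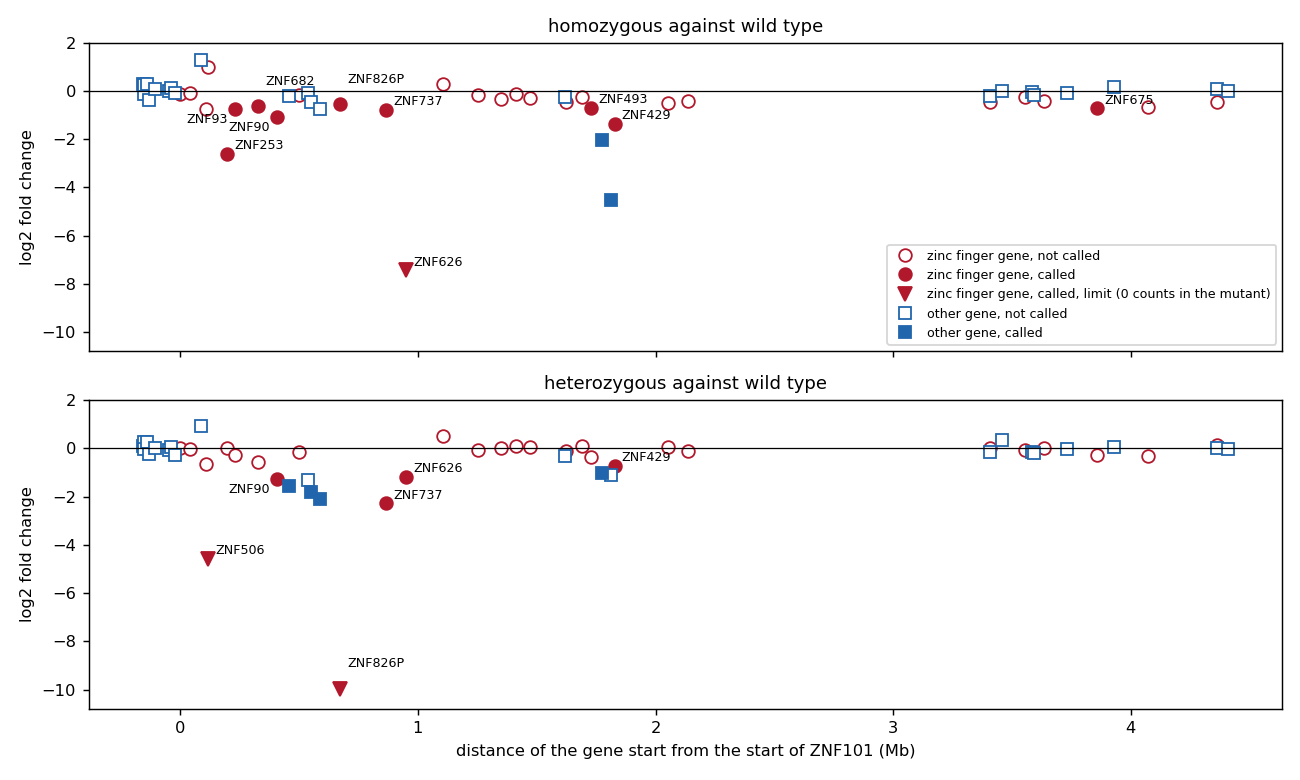
Log2 fold change of the tested genes of the interval against the distance of their start from that of ZNF101, in Mb, for homozygous and heterozygous against wild-type cells. Circles and triangles are zinc finger genes and squares other genes, filled where called; triangles are limits for genes with 0 counts in the mutant. Between 20 and 21 Mb 4 of 7 zinc finger genes are lower in heterozygous cells.

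Features of sequence and level can be set beside the calls as a description. The 8 genes with a promoter that were lower in homozygous than in wild-type cells held 8 to 10 CpG with a median of 9, against 9 to 18 with a median of 10.5 in the 16 not called. Proteins of genes called there had 10 to 18 zinc fingers with a median of 13, against 0 to 32 with a median of 12. Wild-type levels of the called genes were 1.25 to 11.9 RPKM with a median of 4.30, against 0.104 to 8.72 RPKM with a median of 1.95.

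KRAB zinc finger proteins act through co-repressors and heterochromatin proteins, of which 23 genes were listed and tested. In homozygous against wild-type cells 1 of the 23 was higher and 0 lower, where 3.5% of all genes were higher and 4.18% lower. In heterozygous against wild-type cells and between the mutants edgeR called 0 of 23, where 1.86% and 2.21% of all genes were called. At an unadjusted p under 0.05, 3 of 23 passed in homozygous and 2 in heterozygous against wild-type cells, and 3 between the mutants, where 23.2%, 13.5% and 18.3% of all genes did. Counts as small as these do not set the list apart from all genes. The one called was CHD3, a NuRD helicase and like CHD7 a CHD family member, at 135 ± 17.4 CPM in homozygous and 98.4 ± 6.06 CPM in wild-type cells (SD, n = 3 each), a log2 fold change of 0.45 (adjusted p = 0.0131). TRIM28 averaged 779 ± 56.6 CPM in homozygous, 713 ± 124 CPM in heterozygous and 823 ± 57.8 CPM in wild-type cells (SD, n = 3 each), and was not called. The list's median log2 fold change was -0.05 in homozygous and -0.01 in heterozygous against wild-type cells, and -0.06 between homozygous and heterozygous cells. Of 8 DNA methylation genes, the DNMT and TET enzymes among them, 0 were called in any comparison by edgeR, and at most 2 passed an unadjusted p of 0.05 in any comparison. The medians were -0.08 in homozygous and -0.03 in heterozygous against wild-type cells.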

How the data were processed

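Gene expression was measured by RNA sequencing of total RNA. The deposited table holds raw counts per Ensembl gene in 9 libraries. Per the submitters' processing notes, the tools were HTSeq, HISAT2, SAMtools, Trimmomatic and FastQC, on hg38. Versions, annotation, read length and strand setting are not given in the sources. Counts were whole numbers. Genotypes and replicate numbers came from the labels.

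In R 4.3.3, edgeR 4.0.16 was fitted to the 9 libraries together with genotype alone as factor, after filterByExpr (16837 genes kept, 9403 removed) and TMM scaling, with two-sided quasi-likelihood tests checked on simulated counts. Where a genotype had 0 counts, the fold is a limit from a floor of 3 counts over the genotype. Positions and exon lengths came from GENCODE release 29 and promoters from RefSeq; the lengths need not match the annotation that was counted. Proteins were translated from GENCODE coding sequences, and sequence pairs were aligned with Biopython 1.88.

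The genes, lists and tests were chosen with earlier results of these data known. The genes named are ZNF826P, ZNF626, ZNF737 and ZNF506, every gene of the cluster called in any comparison, ZNF91 and ZNF93, the 5 highest per length in wild-type cells, genes at 0 in a genotype with at least 30 counts in another, the 2 uncalled genes closest to the threshold in each comparison, the edges of the interval, CHD7 and called genes of the lists. ZNF66, ZNF486, ZNF56P, TRIM28 and genes of the interval outside the cluster were named after their values were seen. Alternatives were other scalings and filters, DESeq2 1.42.0, limma-voom 3.58.1, a test against a 1.5-fold change, the replicate number as a block, the 6 libraries of a comparison alone, and leaving out each library. Chi-square values per degree of freedom between replicates were 2.55 to 30.6, so no pair was treated as 1 library.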

Additional observations from a re-analysis of the deposited data

How the results depend on the processing

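The direction of each named gene was the same in all 19 alternatives in which it was tested, for every called difference. The number of zinc finger genes called stayed at 10 or 11 in homozygous against wild-type cells under other scalings, filters, DESeq2, limma-voom and the 6 libraries alone, and fell to 4 in the test against a 1.5-fold change. Leaving out 1 library gave 7 to 12, 4 to 7 and 5 to 7 calls for homozygous and for heterozygous cells against wild type and for homozygous against heterozygous cells. The medians were then -0.57 to -0.28, -0.2468 to -0.0683 and -0.40 to -0.14, the values of -0.28 and -0.14 being those without homozygous replicate 2 and that of -0.2468 without heterozygous replicate 3. With the 6 libraries alone, ZNF682 was lost in homozygous against wild-type cells and gained in heterozygous against wild-type cells, and ZNF93 was lost between the mutants. With DESeq2, ZNF682 was gained in heterozygous against wild-type cells, and ZNF429, ZNF675 and ZNF738 were gained between the mutants. ZNF681 was gained in homozygous against wild-type cells with DESeq2, without a filter, with the 6 libraries alone, with the block and without homozygous replicate 3 or heterozygous replicate 3. ZNF506 was not tested under a filter of 1 CPM in 3 libraries. CHD7 was no longer called in heterozygous cells against a 1.5-fold change.

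Over all genes, the calls of 1293 in homozygous against wild-type cells became 281 against a 1.5-fold change and 651 to 2118 without 1 library, the highest without homozygous replicate 3 and the lowest without wild-type replicate 2. The 313 of heterozygous against wild-type cells became 574 with DESeq2, 89 against a 1.5-fold change, 604 with the 6 libraries alone and 130 to 624 without 1 library. The 372 of homozygous against heterozygous cells became 849 with DESeq2, 67 against a 1.5-fold change, 177 with the 6 libraries alone and 141 to 377 without 1 library. Upper quartile scaling turned 589 higher and 704 lower in homozygous against wild-type cells into 712 and 607; the cause was not tested. With the replicate number as a block, 1503, 492 and 461 genes were called, of which 11, 6 and 6 were zinc finger genes of the cluster. Same-numbered libraries did not deviate together (correlations -0.36 to 0.40, 1 of 9 libraries closest to its own number). Depth limits ZNF506, ZNF56P and ZNF726, and labels with no clones or cultures limit what the p-values cover.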
